A study of Mus musculus with 20 samples.

Results

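The livers described here came from C57BL/6 mice homozygous for a floxed *Cideb* allele (*Cideb* fl/fl). Their diet, CDA-HFD, was high in fat, lacked choline and supplied L-amino acids in place of protein. The study's methods describe it as deficient in methionine as well. They make up 10 of the 20 livers sequenced. The groups follow the labels: 5 mice had received AAV-TBG-GFP and are called WT, and 5 had received AAV-TBG-Cre and are called KO. All 10 mice carried the floxed allele, with loxP sites around exon 2, and all had an adeno-associated virus, so the groups differ in the cargo of the vector. The TBG promoter is active in hepatocytes, which limits the deletion to that cell type and leaves *Cideb* intact in the other cells of the liver. The vectors were given at 6 weeks of age, and the labels give 3 months on the diet. The other 10 livers, again 5 WT and 5 KO, had the same alleles and vectors and a western diet (WD), and their values are used here only beside those of CDA-HFD. The labels give 3 months for WD too, but the study's methods give a longer time on WD than on CDA-HFD, so diet and duration cannot be told apart. RNA of the whole liver was sequenced and reads were counted per gene. Since these are bulk samples, fewer cells of a type and less RNA per cell cannot be told apart.

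CIDEB sits on lipid droplets and the endoplasmic reticulum of hepatocytes, where it promotes the growth of droplets by lipid transfer and the lipidation of very low-density lipoproteins. A diet without choline starves the liver of phosphatidylcholine, the phospholipid that coats both droplets and lipoproteins. Fat then builds up in hepatocytes, and macrophages, neutrophils and activated stellate cells, which lay down collagen, accumulate around them.

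Between 12069159 and 16827147 reads were counted on genes in WT livers and between 13153369 and 15743111 in KO livers. Of 9 measures of library quality none passed after adjustment (exact two-sided permutation test, lowest p = 0.0397, Benjamini-Hochberg adjusted p = 0.179). The 8 hepatocyte markers summed to between 42757 and 121999 CPM (read counts scaled to a common library size) in every liver. The pancreas markers *Cpa1* and *Pnlip*, summed, and the fat marker *Adipoq* stayed at or below 0.151 CPM. A wider list of 8 pancreas and fat markers summed to at most 0.605 CPM in WT livers, 0.356 CPM in KO livers 1 to 4 and 0.666 CPM in KO liver 5. KO liver 5 stood apart. In a principal component analysis of log2 CPM the leading axis, with 61.3% of the variance, placed it at -41.4, among the WT livers (-63.3 to -7.53) and away from the other KO livers (42.9 to 66.1). Across genes, the median SD of log2 CPM was 0.234 over the 5 WT livers, 0.285 over the 5 KO livers and 0.195 over KO livers 1 to 4. For this reason the main counts are given with and without KO liver 5.

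*Cideb* (chromosome 14, 55754052 to 55758424, GRCm38.p6) had 35, 51, 50, 57 and 60 reads in WT livers 1 to 5. In KO livers 1 to 5 it had 3, 0, 6, 2 and 1 reads, so each KO liver, liver 5 included, was below each WT liver (exact permutation test, p = 0.00794, the smallest that 5 against 5 allow). The fitted log2 fold change reached -4.19 ± 0.47 (standard error) at an adjusted p of 0.00268. *Cidec*, which fuses lipid droplets in fat storage, averaged 49.9 ± 14.3 CPM in WT against 43.9 ± 24.4 CPM in KO livers (SD, n = 5 each; adjusted p = 0.727), and *Cidea* had between 0 and 4 reads in any liver and was not tested. *Nop9*, a ribosomal RNA processing factor that overlaps the 3' part of *Cideb* on the other strand, averaged 24.4 ± 1.65 CPM in WT against 34.1 ± 4.39 CPM in KO livers (SD over 5 livers each; 0.48 on the log2 scale, adjusted p = 0.0163). Whether reads were counted by strand is not known, so the values of this pair are uncertain.

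Of 17204 genes tested with edgeR's quasi-likelihood test, 2664 (15.5%) passed an adjusted p of 0.05, of which 1409 (8.19%) were higher and 1255 (7.29%) lower in KO livers. At an unadjusted p under 0.05 there were 6076. The median log2 fold change was 0.005 over all genes, with quartiles at -0.30 and 0.26. It was 0.62 over the genes called higher and -0.83 over those called lower. At least 4-fold changes were called in 26 genes that rose and 46 that fell. The WT and KO livers did not overlap for 1632 genes (9.49%).

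The direction of the calls moved with abundance. Of the genes called with a mean under 0 log2 CPM, 32.4% were higher in KO livers, and this share was 39.3% from 2 to 4, 51.1% from 4 to 6, 72.2% from 6 to 8 and 86.8% at 8 and above. The median log2 fold change of all genes tested was -0.07 in the lowest bin and 0.37 in the highest. Calls among abundant transcripts were thus mostly rises and calls among scarce ones mostly falls. The TMM scaling factors were 0.976 to 1.17 in WT livers, 0.837 to 0.941 in KO livers 1 to 4 and 1.14 in KO liver 5 (exact permutation test, p = 0.0794). With library size as the only scaling, the median of all genes shifted to -0.19, and 517 genes were higher and 1192 lower, so that the share of calls that were higher was 30.3% in place of 52.9%. Of the 70 named genes called, 12 then lost the call but kept their direction: *Nop9*, *Vsig8*, *Hilpda*, *Soat1*, *C2*, *Gstm1*, *Muc1*, *Gzmb*, *Bhlhe41*, *Bmp6*, *Apoh* and *Lgals3*.

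**Figure D1:**
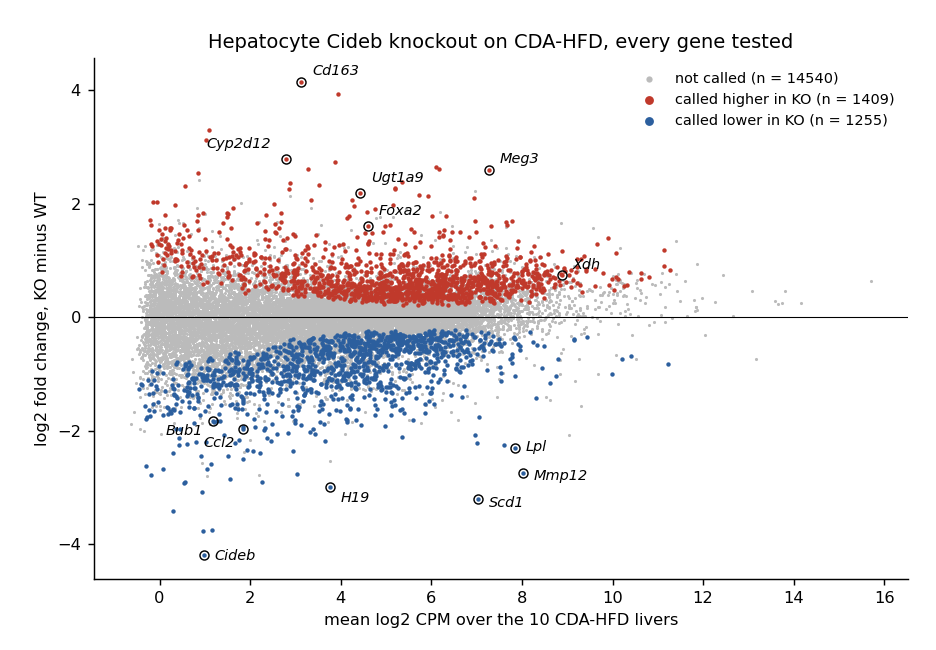
Log2 fold change (KO minus WT) of the 17204 genes tested on CDA-HFD against their mean log2 CPM over the 10 livers. Each point is a gene, red where it was called higher (1409), blue where it was called lower (1255) and grey elsewhere, and red points take over towards the abundant genes on the right.

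Without KO liver 5, 7201 of 17411 genes tested were called (41.4%). Rises numbered 3406 (19.6%) and falls 3795 (21.8%), and all 2664 genes called with that liver were among them. Since that liver took no part in this fit, its own values can be set against the calls of the other 9. Of the 7149 of these genes that also entered the test of all 10 livers, KO liver 5 lay beyond every WT liver in the direction of the call for 1845 (25.8%). It fell inside the WT range for 4242 (59.3%), and beyond all of them on the opposite side for 1062 (14.9%). For any other liver held out in the same way, 56.0% to 98.9% of the calls put it beyond the opposite group. Those fits kept KO liver 5 and called only 706 to 2511 of the genes, so the sets of genes are unlike. Over the 2664 genes also called with KO liver 5, it lay beyond every WT liver in the direction of the call for 1518 (57.0%). Its own values helped to choose that set. KO liver 5 had thus lost *Cideb* and shared 25.8% of the calls of the other KO livers by this measure. The gene groups below differed in how much of that they held. Their counts are to be read beside the shares over all genes. These were 15.5% called with all 5 KO livers (8.19% higher, 7.29% lower) and 41.4% without KO liver 5. Of the 70 named genes called, 44 kept the call in each of the 10 fits that left out 1 liver, and 22 lost it in at least 4 of them.

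**Figure D2:**
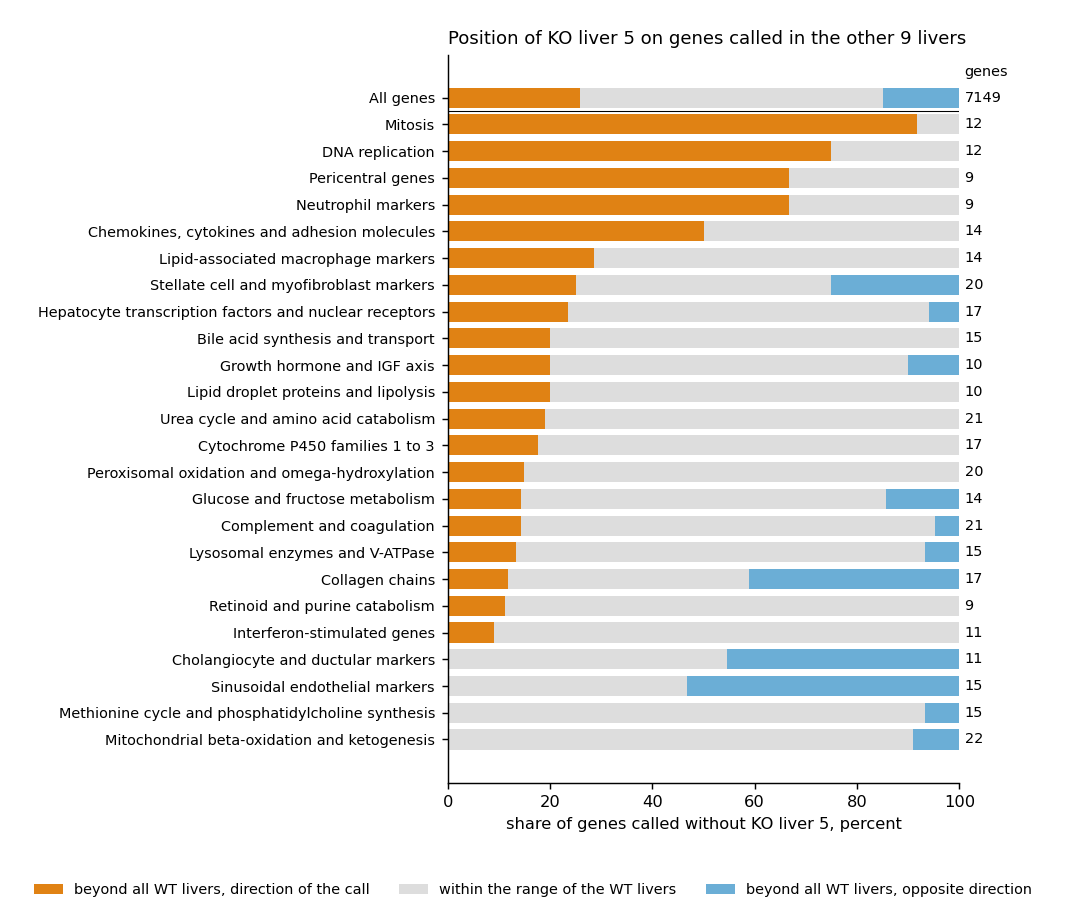
Genes called without KO liver 5, as percent of each list with at least 9 such genes, split by where KO liver 5 lay relative to the 5 WT livers; the number of genes is on the right and all 7149 genes are the top bar. Mitosis (11 of 12) and DNA replication (9 of 12) had the largest shares in which KO liver 5 followed the other KO livers, and among the lists with none were beta-oxidation and the methionine cycle.

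Among called genes with a mean of at least 2 log2 CPM and no overlap between the groups, predicted genes aside, the largest rises were *Cyp2d12*, *Rtl1*, *Meg3*, *Gbp11*, *Acot1*, *Phlda1*, *Rian* and *Elovl3*, with log2 fold changes from 2.78 to 2.07. *Meg3*, *Rian* and *Rtl1* lie in the imprinted cluster of chromosome 12, where *Meg3* and *Rian* are long noncoding RNAs of the maternal chromosome and *Rtl1* is expressed from the paternal one. *Meg3* was at 51.4, 53.6, 48.4, 31.5 and 35.0 CPM in WT livers 1 to 5, and at 244, 214, 306, 318 and 238 CPM in KO livers 1 to 5. All 5 KO livers were far above the WT livers and KO liver 5 lay among its group (log2 fold change 2.59, standard error 0.18, adjusted p = 0.00027). *Rian* was at 15.2 to 29.7 CPM for WT and 76.5 to 148 CPM in KO livers, with 76.6 CPM in KO liver 5. *Rtl1* was at 10.4 to 31.9 CPM in WT livers, at 107 to 194 CPM in KO livers 1 to 4 and at 38.1 CPM in KO liver 5, which was above each WT liver but below its group. *Mirg*, a microRNA host of the same cluster, rose as well (log2 fold change 1.93, adjusted p = 0.0122). *Rtl1* has an antisense transcript, so its count is uncertain where strand was ignored. By the coordinates used here *Rtl1* also overlaps *Meg3* and *Rian* in part. Reads in the shared stretches could be lost or misplaced, so the counts of these genes may not be fully separate.

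*Cyp2d12*, a P450 with close paralogs, was at 0.984 to 2.29 CPM for WT and at 8.04 to 19.3 CPM in KO livers. KO liver 5 was the highest of all. *Acot1*, a cytosolic acyl-CoA thioesterase that PPARα induces, was at 1.65 to 6.30 CPM for WT and at 9.75 to 28.3 CPM in KO livers, and it has near-identical paralogs. *Elovl3*, an elongase of saturated fatty acids, was at 2.76 to 4.77 and 9.63 to 26.2 CPM. *Gbp11*, an interferon-induced GTPase, was at 10.6 to 15.9 CPM for WT and at 24.7 to 185 CPM in KO livers, where KO liver 4 alone held the highest value. *Phlda1*, a pleckstrin homology-like protein, was at 12.96 to 24.5 and 32.2 to 199 CPM.

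Under the same conditions the largest falls were *H19*, *S100a8*, *S100a9*, *Mmp12*, *Vsig8*, *Ccr1*, *Lpl* and *Lcn2*. *H19*, a maternally expressed noncoding RNA of the fetal liver, was at 27.0, 12.1, 30.3, 34.2 and 15.5 CPM for WT and at 3.54, 3.27, 2.08, 1.14 and 4.66 CPM in KO livers (log2 fold change -3.004, standard error 0.38, adjusted p = 0.00445). The groups were well separated and KO liver 5 was with the KO livers. *Lcn2*, an iron-binding acute phase protein of hepatocytes and neutrophils, was at 278, 248, 198, 193 and 680 CPM for WT and at 73.1, 41.4, 69.4, 46.9 and 102 CPM in KO livers (log2 fold change -2.26, adjusted p = 0.0105). WT liver 5 was far above its group, and without it each WT liver was still above each KO liver. *Mmp12*, the elastase of macrophages, was at 635, 360, 478, 330 and 454 CPM for WT and at most 41.95 CPM in KO livers 1 to 4, with 217 CPM in KO liver 5 (log2 fold change -2.75, standard error 0.63, adjusted p = 0.0208). KO liver 5 was between the other KO livers and the WT livers, and without it the log2 fold change was -3.93. *Mmp12* lost the call without WT liver 3, KO liver 1 or KO liver 3. *Vsig8* lost it in 8 of the 10 fits that left out 1 liver. It was at 5.06 CPM in KO liver 5, at 0.214 to 0.864 CPM in KO livers 1 to 4 and at 6.52 to 9.90 CPM in WT livers.

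**Figure D3:**
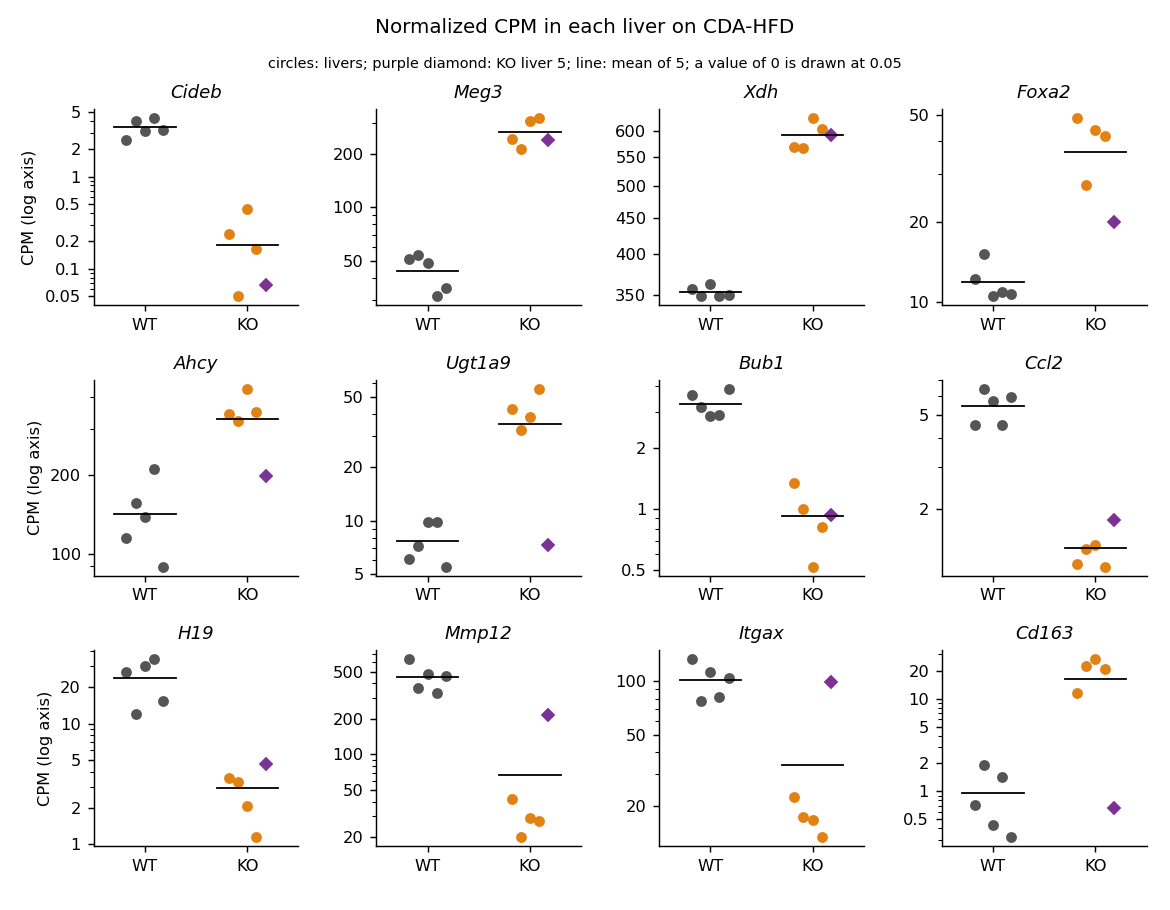
TMM-normalized CPM of 12 named genes in each of the 5 WT and 5 KO livers on CDA-HFD, on log axes with 0 drawn at 0.05; circles are livers, the purple diamond is KO liver 5 and the line is the mean of 5. KO liver 5 sits with the KO livers for Cideb, Meg3, Xdh and Bub1, and among the WT livers for Ahcy, Ugt1a9, Itgax and Cd163.

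Genes of cell division were lower in KO livers, KO liver 5 included. Among the lists with at least 9 genes called without that liver, mitosis was the one in which it most often lay beyond the WT livers with its group. Of 18 mitosis genes tested, 11 fell and 0 rose, with a median log2 fold change of -0.85. Of 18 DNA replication genes tested, 9 fell and 0 rose, with a median of -0.53. *Bub1*, a kinase of the spindle checkpoint, was at 3.61, 3.18, 2.84, 2.88 and 3.89 CPM for WT and at 1.34, 0.996, 0.521, 0.816 and 0.933 CPM in KO livers (log2 fold change -1.83, standard error 0.23, adjusted p = 0.00445). Every KO liver was below every WT liver. *Mki67*, a protein of dividing nuclei, fell from 52.9 ± 5.88 to 25.5 ± 6.19 CPM, and *Top2a*, the topoisomerase that untangles chromosomes, fell from 29.9 ± 6.43 to 15.0 ± 3.74 CPM (SD, n = 5 each). *Mcm2*, a subunit of the replicative helicase, fell from 18.5 ± 4.44 to 9.69 ± 1.33 CPM (SD, n = 5 each; adjusted p = 0.0122). Of the 12 mitosis genes called without KO liver 5, that liver lay below every WT liver for 11, and of the 12 replication genes it did so in the direction of the call for 9. Leaving out 1 of the other 9 livers gave 6 to 10 calls in the mitosis list and 3 to 9 in the replication list. Which cell type these transcripts came from cannot be told in bulk RNA, and the macrophage and neutrophil genes described below moved with these lists in KO livers 1 to 4. Their part in the result was not tested.

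The promoters of these genes carry letters that recur in cell cycle genes, and they are shown because the 2 lists moved together. In promoter windows of RefSeq (GRCm38.p6), which run from 250 bases before to 50 after a transcript start, TTTGAA on either strand was present for 11 of the 15 mitosis genes with a window (73.3%). It was present for 15.9% of the 12671 tested genes with a window and in 17.9% of all 32851 windows. These letters are the core of the cell cycle genes homology region, at which the DREAM complex is known to hold late cell cycle genes silent. Windows of 30 bases from genes called lower are printed in the direction of the gene, with the match, TTTGAA or its reverse complement, in capitals.

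*Mki67* (chr7:135716477-135716506, minus strand): tagcgccagaaTTTGAAccgccgttttggt

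*Top2a* (chr11:99024350-99024379, minus strand): tattggtccatTTTGAAgattctcccgcct

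*Kif11* (chr19:37376352-37376381, plus strand): cgtctccatttTTCAAAattgaggcgcgga

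*Ccnb2* (chr9:70421703-70421732, minus strand): agggactagaaTTTGAAaataagactgtag

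The E2F letters TTTGGCGC, TTTCGCGC or TTTCCCGC on either strand, which mark genes of the start of DNA replication, were in 7 of the 14 replication genes with a window and in 444 of the 12671 tested genes with a window (3.5%; 1.84% of all windows). With 4 of the 18 replication genes lacking a window, the list is under 80% covered, and nothing is concluded from the difference. The genes tested are under 80% covered too, with a window for 12671 of 17204. This limits their shares for both motifs. In *Mcm3*, *Mcm6* and *Cdc6*, which load or form the helicase at origins, they read as follows.

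*Mcm3* (chr1:20820263-20820292, minus strand): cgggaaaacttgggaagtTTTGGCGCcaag

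*Mcm6* (chr1:128359797-128359826, minus strand): tggcgtatgctTTTGGCGCgaaaagtgcgt

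*Cdc6* (chr11:98908002-98908031, plus strand): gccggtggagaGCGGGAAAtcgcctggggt

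On the log2 scale *Mcm3* fell by 0.70, *Mcm6* fell by 0.78 and *Cdc6* fell by 1.023. In *Mcm6* a further E2F match overlaps the one in capitals. A match describes the sequence only.

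Markers of lipid-associated macrophages, the cells that gather around dying fat-laden hepatocytes, were lower in KO livers 1 to 4 and close to the WT level in KO liver 5. Of 14 tested, 10 fell and 0 rose (median log2 fold change -1.71), and without KO liver 5 all 14 did (median -2.62). Their summed level was 2418 to 5414 CPM in WT livers, 391.6 to 544 CPM in KO livers 1 to 4 and 2897 CPM in KO liver 5. *Itgax*, which encodes the integrin CD11c, was at 133, 77.9, 113, 81.7 and 104 CPM for WT and at 22.3, 17.2, 16.7, 13.3 and 99.6 CPM in KO livers. KO liver 5 lay within the WT range and the gene was not called with it (adjusted p = 0.059), but was without it (log2 fold change -2.55, adjusted p = 4.99e-05). *Trem2*, the lipid receptor of these cells, fell from a mean of 53.04 ± 19.6 to 15.9 ± 16.9 CPM (SD, n = 5 each), with 46.0 CPM in KO liver 5. *Lpl*, the lipoprotein lipase, fell from 380 ± 69.3 to 76.9 ± 69.7 CPM (SD, n = 5 each), and here KO liver 5, at 200 CPM, was below each WT liver. *Lgals3* and *Itgam* were also among the genes whose KO liver 5 value fell in the WT range. With 1 of the other 9 livers left out this list held 1 to 9 calls, and with library size as the only scaling 4.

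A macrophage gene outside that pattern was *Msr1*, a scavenger receptor, at 78.0 to 114 CPM for WT and 30.8 to 41.5 CPM in KO livers (log2 fold change -1.34, standard error 0.12, adjusted p = 0.00157). The groups did not overlap and KO liver 5, at 39.1 CPM, was with its group. *Hmox1*, the enzyme that degrades heme, was at 86.5, 60.6, 75.7, 71.9 and 73.3 CPM for WT and at 28.1, 37.2, 30.2, 26.2 and 35.7 CPM in KO livers (log2 fold change -1.22, adjusted p = 0.00158), again with KO liver 5 inside its group. Both genes were named by rules that asked for separate groups and for KO liver 5 inside its own. Those traits therefore came with the choice. Among 12 markers of resident Kupffer cells, 1 rose and 2 fell, and without KO liver 5 there were 3 higher and 4 lower. *Cd163*, the receptor for hemoglobin bound to haptoglobin, was at 0.708, 1.91, 0.433, 1.44 and 0.320 CPM for WT and at 11.4, 22.3, 26.6, 21.0 and 0.666 CPM in KO livers (log2 fold change 4.14, standard error 0.80, adjusted p = 0.0137). It was high in KO livers 1 to 4 only, and KO liver 5 had a WT level. *Adgre1*, which encodes F4/80, fell from 121 ± 30.6 to 65.1 ± 21.7 CPM (SD, n = 5 each). *Clec4f* and *Timd4*, further markers in this list, did not pass (adjusted p = 0.569 and 0.526). Without KO liver 5 *Clec4f* was called higher (log2 fold change 0.59, adjusted p = 0.0395) and *Timd4* was not (adjusted p = 0.215). A set of 6 Kupffer cell markers, these 3 among them, summed to 281 to 577 CPM in WT livers. It had 344 to 540 CPM in KO livers 1 to 4 and 198 CPM in KO liver 5. The call for *Adgre1* was lost in 6 of the 10 fits that left out 1 liver.

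Neutrophil genes were lower in KO livers, also in liver 5. Of 9 tested, 8 fell and 0 rose (median log2 fold change -2.76). *S100a8*, a calcium-binding alarmin, was at 12.8, 6.84, 5.38, 7.42 and 8.53 CPM for WT and at 0.471, 0.569, 0.744, 1.71 and 1.93 CPM in KO livers. The groups did not overlap. Of the 9 genes called without KO liver 5, that liver was below every WT liver for 6. Summed over the list, WT livers had 43.0 to 124 CPM, KO livers 1 to 4 had 11.5 to 17.0 CPM and KO liver 5 had 30.5 CPM. These are low levels, and leaving out 1 of the other 9 livers left 2 to 8 calls.

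Of 19 chemokine, cytokine and adhesion genes tested, 9 fell and 0 rose, and 14 fell without KO liver 5. *Ccl2*, which draws monocytes from the blood, was at 4.53, 6.44, 5.69, 4.54 and 5.92 CPM for WT and at 1.18, 1.35, 1.41, 1.14 and 1.80 CPM in KO livers (log2 fold change -1.97, standard error 0.18, adjusted p = 0.00157). All 5 KO livers were below the WT livers. *Il1rn*, the antagonist of interleukin-1, fell from 28.7 ± 5.68 to 12.7 ± 3.64 CPM, and *Tnf* fell from 2.99 ± 0.274 to 1.30 ± 0.616 CPM (SD, n = 5 each). Chemokines of interferon-γ, *Cxcl9* and *Cxcl10*, did not pass (adjusted p = 0.742 and 0.878). *Atf3*, an early stress-response factor, fell from 40.9 ± 8.10 to 12.4 ± 9.74 CPM (SD, n = 5 each), with 29.6 CPM in KO liver 5. The call for *Atf3* was lost in 4 of the 10 fits that left out 1 liver. The list held 2 to 7 calls with 1 of the other 9 livers left out.

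Matrix genes set KO liver 5 apart from its group. Of 23 stellate cell and myofibroblast genes tested, 7 fell and 0 rose, and without KO liver 5 there were 20. Of those 20, KO liver 5 was below all WT livers for 5, within their range for 10 and above all of them for 5. *Acta2*, the smooth muscle actin of activated stellate cells, was at 11.4, 10.7, 11.5, 9.31 and 23.8 CPM for WT and at 4.09, 2.35, 3.20, 2.20 and 5.996 CPM in KO livers (log2 fold change -1.90, adjusted p = 0.0119), so its groups did not overlap. *Timp1*, an inhibitor of collagenases, and *Lox*, which crosslinks collagen, fell by 2.19 and 2.07 on the log2 scale, and KO liver 5 was below the WT livers for both. The fibrillar collagens went otherwise. *Col1a1* was at 790 ± 245 CPM for WT and 362 ± 351 CPM in KO livers (SD, n = 5 each; adjusted p = 0.130), with 984 CPM in KO liver 5, and *Col3a1* had 1332 CPM in KO liver 5 against a WT mean of 1090 CPM. Of the 17 collagen chains called without KO liver 5, it lay on the opposite side of the WT livers for 7. With all 5 KO livers, *Col8a1* and *Col12a1* fell and *Col5a3* and *Col18a1* rose, so that 2 of 18 chains were called in each direction. The general stellate markers *Lrat*, *Reln* and *Hand2*, which quiescent cells also carry, did not pass (adjusted p from 0.692 to 0.783).

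Of 14 cholangiocyte genes only *Muc1* passed with all 5 KO livers, a call lost in 8 of the 10 fits that left out 1 liver, and 11 were lower without KO liver 5. The 3 defining markers *Krt7*, *Krt19* and *Epcam* summed to 24.4 to 48.7 CPM in WT livers, 6.996 to 18.6 CPM in KO livers 1 to 4 and 59.5 CPM in KO liver 5, the highest of the 10. Of 20 sinusoidal endothelial genes 0 passed in the edgeR test (9 at an unadjusted p under 0.05, and 3 called higher by DESeq2 and 12 higher and 1 lower by limma voom with library weights), and without KO liver 5 there were 13 higher and 2 lower. *Ptprb*, an endothelial phosphatase, was at 217 to 243 CPM in WT livers, 292 to 371 CPM in KO livers 1 to 4 and 186 CPM in KO liver 5. Of 8 genes of antigen presentation by MHC class II, 0 passed in the edgeR test with KO liver 5 (1 at an unadjusted p under 0.05, 0 by DESeq2 and 6 lower by limma voom with library weights) and 6 were lower without it. *Cd74* had 507 CPM in that liver, above the 324 to 432 CPM of WT livers and the 183 to 243 CPM of the other KO livers. Among 16 T, NK and B cell markers only *Gzmb* and *Jchain* were called, beside 15.5% over all genes tested. *Gzmb* rose from 0.609 ± 0.094 to 1.24 ± 0.233 CPM (SD, n = 5 each). *Jchain*, the joining chain of antibodies, fell from 60.2 ± 29.04 to 19.3 ± 11.8 CPM (SD, n = 5 each). The call for *Jchain* was lost in 6 of the 10 fits that left out 1 liver.

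Of 21 genes of lysosomal enzymes and the proton pump, 8 fell and 0 rose, and without KO liver 5 there were 13 lower and 2 higher. *Lipa*, the acid lipase of lysosomes, fell from 421 ± 32.9 to 296 ± 19.8 CPM (SD over 5 livers each; -0.51 on the log2 scale, adjusted p = 0.0124), with KO liver 5 at 298 CPM. The cathepsins *Ctsb* and *Ctsd* fell by 0.75 and 1.00 on the log2 scale, with KO liver 5 at 1261 and 1292 CPM against WT means of 1478 and 1364 CPM. KO liver 5 thus followed its group for *Lipa* and not for the cathepsins. With 1 of the other 9 livers left out there were 1 to 8 calls in the list, and 4 with library size as the only scaling. Macrophages hold many lysosomes, and the macrophage list moved with this one in KO livers 1 to 4. Its part in the result was not tested.

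**Figure D4:**
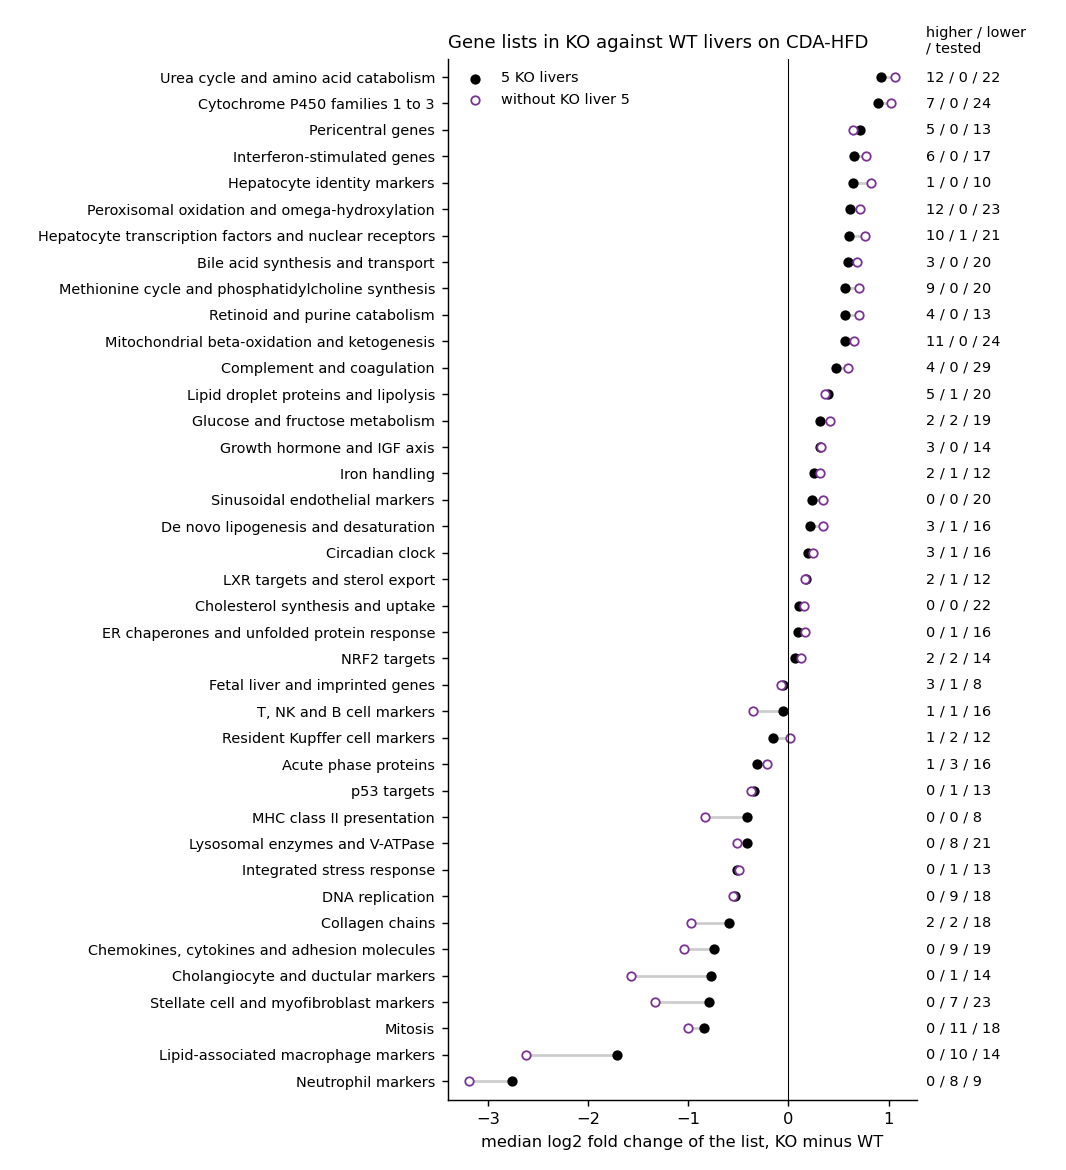
Median log2 fold change (KO minus WT, CDA-HFD) of each gene list with at least 8 genes tested, with all 5 KO livers (black) and without KO liver 5 (open). The numbers on the right are genes called higher, called lower and tested; neutrophil (median -2.76) and lipid-associated macrophage markers (median -1.71) lie lowest, and leaving out KO liver 5 moves the macrophage, stellate and cholangiocyte lists most.

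Genes of the hepatocyte's own metabolism were higher in KO livers 1 to 4, and KO liver 5 was mostly at the WT level. The 8 hepatocyte markers moved in the same way: they summed to 44055 to 88660 CPM in WT livers, 89057 to 121999 CPM in KO livers 1 to 4 and 42757 CPM in KO liver 5, although only *Apoh* of the 8 was called. Their part in the results on the lists of metabolism was not tested. Of 24 genes of mitochondrial beta-oxidation and ketogenesis, 11 rose and 0 fell, with a median log2 fold change of 0.56. Without KO liver 5, 22 were higher, and in that liver 20 of them lay within the WT range and 2 below it. *Acsl1*, which activates long-chain fatty acids, rose from 531 ± 271 to 1393 ± 586 CPM (SD, n = 5 each; adjusted p = 0.0392), with 603 CPM in KO liver 5. *Acsf2*, another acyl-CoA synthetase, was at 83.2 to 143 CPM in WT livers, at 217 to 225 CPM in KO livers 1 to 4 and at 113 CPM in KO liver 5. Leaving out 1 of the other 9 livers gave between 0 and 12 calls in this list, so the number of calls rests on which livers are included. With library size as the only scaling 6 of the 24 passed, all higher.

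Of 23 genes of peroxisomal oxidation and omega-hydroxylation, 12 rose and 0 fell (median 0.61), and 20 were higher without KO liver 5. *Pex16*, which starts the peroxisomal membrane, was at 31.3 to 46.3 CPM for WT and 53.9 to 70.0 CPM in KO livers, with no overlap (log2 fold change 0.63, adjusted p = 0.0137). KO liver 5, at 54.3 CPM, was within its group. The omega-hydroxylases *Cyp4a10* and *Cyp4a12a* rose by 1.67 and 1.77 on the log2 scale. Both have close paralogs that can share reads. The count was 2 to 11 with 1 of the other 9 livers left out and 6 with library size as the only scaling.

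The diet lacked choline and, by the study's methods, was deficient in methionine. The methionine cycle, which makes the methyl groups for phosphatidylcholine, is of interest under such a diet. Of 20 genes of this cycle and of phosphatidylcholine synthesis, 9 rose and 0 fell (median 0.57). *Ahcy*, which clears S-adenosylhomocysteine, was at 116, 156, 139, 211 and 89.4 CPM for WT and at 345, 325, 430, 350 and 200 CPM in KO livers (log2 fold change 1.21, standard error 0.24, adjusted p = 0.0147). The 4 other KO livers were above all WT livers, and KO liver 5 was below the highest of them. *Gnmt*, the methyltransferase that uses up surplus methyl groups, rose from 240.1 ± 91.2 to 519 ± 152 CPM and *Sardh* of the same pathway from 422 ± 131 to 893 ± 294 CPM (SD, n = 5 each). Of the 15 genes called without KO liver 5, that liver was beyond the WT livers in the direction of the call for 0, within their range for 14 and on the other side for 1. Leaving out 1 of the other 9 livers gave 2 to 9 calls.

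Of 22 genes of the urea cycle and amino acid breakdown, 12 rose and 0 fell (median 0.93), and 21 were higher without KO liver 5. *Prodh*, the first enzyme of proline breakdown, was at 93.5, 114, 90.9, 114 and 88.3 CPM for WT and at 260, 214, 316, 189 and 216 CPM in KO livers (log2 fold change 1.26, standard error 0.15, adjusted p = 0.00305). Every KO liver was above every WT liver, KO liver 5 included. *Tdo2*, which opens the ring of tryptophan, and *Hpd*, which breaks down tyrosine, rose by 1.14 and 1.29 on the log2 scale without overlap. The urea cycle enzymes *Ass1* and *Asl* rose by 1.019 and 1.15 on the log2 scale, and KO liver 5 lay within the WT range for both. It ranged from 3 to 14 with 1 of the other 9 livers left out.

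Of 21 hepatocyte transcription factors and nuclear receptors, 10 rose and 1 fell, and without KO liver 5 there were 16 higher and 1 lower. *Foxa2*, a pioneer factor of the liver, was at 12.2, 15.1, 10.5, 10.9 and 10.7 CPM for WT and at 48.7, 27.5, 43.9, 41.6 and 19.9 CPM in KO livers (log2 fold change 1.61, standard error 0.23, adjusted p = 0.00733). The groups did not overlap, and KO liver 5 was the lowest of its group. *Hnf4a* rose from 490 ± 92.4 to 879 ± 162 CPM and *Nr1i3*, which encodes the receptor CAR, from 89.5 ± 24.2 to 187 ± 53.7 CPM (SD, n = 5 each). The member that fell was *Pparg*, which drives fat storage, at 26.5 to 28.4 CPM for WT and 14.7 to 22.2 CPM in KO livers (log2 fold change -0.59, adjusted p = 0.0137). Its groups did not overlap. With 1 of the other 9 livers left out, 5 to 11 were called higher and 1 lower.

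Of 24 P450 enzymes of drug and steroid metabolism in families 1 to 3, their reductase *Por* included, 7 rose and 0 fell (median 0.89), and 17 were higher without KO liver 5. With 1 of the other 9 livers left out, 2 to 10 were. *Cyp1a2*, which oxidizes caffeine and aromatic amines near the central vein, was at 185 to 364 CPM for WT and 488 to 738 CPM in KO livers, with no overlap (log2 fold change 1.17, adjusted p = 0.00923). Of 20 genes of bile acid synthesis and transport, *Cyp27a1*, *Abcb11* and *Abcc3* rose with KO liver 5, which is 3 beside 15.5% called over all genes. Without that liver 14 were higher and 1 lower, beside 41.4% called over all genes. With 1 of the other 9 livers left out there were 1 to 7 calls. *Cyp27a1*, which starts the acidic pathway of bile acid synthesis, was at 149 to 237 CPM for WT and 280 to 404 CPM in KO livers, and *Cyp7a1*, the rate-limiting enzyme of the classic pathway, did not pass (adjusted p = 0.508). *Ugt1a9*, a glucuronosyltransferase that shares exons with its neighbours and so has uncertain counts, was at 5.49 to 9.89 CPM in WT livers, at 32.5 to 55.6 CPM in KO livers 1 to 4 and at 7.26 CPM in KO liver 5. That liver had the WT level.

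Of 13 pericentral genes tested, 5 rose and 0 fell (median 0.72), and of the 9 called without that liver it was above every WT liver for 6. *Glul*, the glutamine synthetase of the hepatocytes around the central vein, rose from 1780 ± 501 to 3149 ± 555 CPM (SD over 5 livers each; 0.82 on the log2 scale, adjusted p = 0.0319), with 3904 CPM in KO liver 5. *Rhbg*, an ammonium transporter, rose from 31.6 ± 5.27 to 55.3 ± 15.9 CPM (SD, n = 5 each), with 79.5 CPM in KO liver 5. *Axin2*, a target of Wnt signaling, had 41.3 CPM in that liver against a WT mean of 23.2 CPM. With library size as the only scaling 1 of the 13 passed, and leaving out 1 of the other 9 livers gave 1 to 5 calls.

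Of 20 lipid droplet and lipolysis genes, 5 rose and 1 fell, and without KO liver 5 there were 8 higher and 2 lower. With 1 of the other 9 livers left out, 2 to 5 were higher and 0 to 1 lower. *Plin5*, the perilipin that ties droplets to mitochondria, was at 37.0, 41.9, 39.9, 53.8 and 51.7 CPM for WT and at 132, 84.3, 104, 69.0 and 70.8 CPM in KO livers (log2 fold change 1.04, standard error 0.19, adjusted p = 0.0122). Each KO liver was above each WT liver. *Lipe* and *Mgll*, lipases of di- and monoglycerides, rose, as did *G0s2*, which inhibits the triglyceride lipase ATGL, and *Dgat2*, which makes triglycerides. Their rises were 0.79 to 1.32 on the log2 scale. *Hilpda*, an inhibitor of lipolysis, fell by 0.80 at an adjusted p of 0.0498. The call for *Hilpda* was lost in 8 of the 10 fits that left out 1 liver. *Plin2*, the main coat protein of hepatocyte droplets, was at 469 ± 27.4 and 434 ± 77.8 CPM (SD, n = 5 each; adjusted p = 0.544). Of 16 genes of fatty acid synthesis, 3 rose and 1 fell. *Scd1*, which introduces a double bond into stearate, was at 60.7, 269, 80.1, 166 and 599 CPM for WT and at 17.6, 7.62, 8.41, 15.5 and 77.1 CPM in KO livers (log2 fold change -3.21, standard error 0.81, adjusted p = 0.0266). WT livers spanned a wide range and KO liver 5 reached into it, and the call was lost in 5 of the 10 fits that left out 1 liver. *Fasn*, the fatty acid synthase, and *Srebf1*, its regulator, did not pass (adjusted p = 0.360 and 0.654). *Mlxipl*, which encodes the carbohydrate sensor ChREBP, was at 99.5 to 169 CPM for WT and 179 to 332 CPM in KO livers without overlap. Of 19 genes of glucose and fructose metabolism, 2 rose and 2 fell, and without KO liver 5 there were 8 higher and 6 lower. *Khk*, the fructokinase, was at 104 to 166 and 168 to 313 CPM, and *G6pdx*, which feeds the pentose phosphate pathway, and the hexokinase *Hk3* fell by 1.17 and 1.33 on the log2 scale. The calls for *Khk* and *G6pdx* were each lost in 3 of the 10 fits that left out 1 liver, and with 1 of the other 9 livers left out the list held 0 to 3 higher and 0 to 2 lower.

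Of 22 genes of cholesterol synthesis and uptake 0 passed in the edgeR test with all 5 KO livers (0 at an unadjusted p under 0.05, 0 by DESeq2 and 2 higher by limma voom with library weights). The median log2 fold change was 0.10, and 2 were higher without KO liver 5. Of 12 sterol export genes, *Abcg5* and *Abcg8*, the 2 parts of the transporter into bile, rose by 0.80 and 0.92 on the log2 scale, and *Soat1*, which esterifies cholesterol in macrophages, fell by 1.34, a call lost in 7 of the 10 fits that left out 1 liver.

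*Xdh*, which makes uric acid from xanthine, varied little within each group. It was at 357, 348, 362, 348 and 349 CPM for WT and at 568, 566, 626, 604 and 592 CPM in KO livers (log2 fold change 0.75, standard error 0.08, adjusted p = 0.00279). The groups stood apart with KO liver 5 inside its own. *Zfyve1*, a protein of droplet contact sites and early autophagosomes, was at 63.1 to 71.5 CPM for WT and 103 to 132 CPM in KO livers (adjusted p = 0.00158). The ribosomal protein genes *Rpl39* and *Rpl31* fell by 1.20 and 0.82 on the log2 scale. Both have many processed copies in the genome, so their counts are uncertain.

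Of 17 interferon-stimulated genes 6 rose and 0 fell (median 0.65), and 11 were higher without KO liver 5, which lay within the WT range for 10 of those. The list held 2 to 9 calls with 1 of the other 9 livers left out and 3 with library size as the only scaling. *Usp18*, the deISGylase that dampens interferon signaling, was at 26.9 to 45.7 CPM for WT and 52.97 to 81.3 CPM in KO livers, with no overlap (log2 fold change 0.96, adjusted p = 0.00949). Of the 29 complement and coagulation genes 4 rose, *C2* among them, beside 15.5% called over all genes tested. Without KO liver 5, 21 were higher, beside 41.4% called over all genes. With 1 of the other 9 livers left out 0 to 9 were called higher. Of 16 acute phase genes *Saa4* rose while *Lcn2*, *Saa3* and *Steap4* fell. Across the 10 fits that left out 1 liver, *Saa4* lost the call in 3 and *C2* in 7.

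Of 13 genes of the integrated stress response only *Atf3* passed, of 16 endoplasmic reticulum chaperones and folding genes only *Dnajb9* (fell by 0.55 on the log2 scale), and of 13 p53 targets only *Ccng1* (fell by 0.35). Of 14 NRF2 targets *Gstm1* and *Ephx1* rose, and *Hmox1* and the cystine transporter *Slc7a11* fell. Of 12 iron genes *Bmp6* and *Tmprss6* rose and *Fth1*, the ferritin heavy chain, fell by 0.35, while the hormone *Hamp* did not pass (adjusted p = 0.381). Of 16 clock genes *Cry1*, *Cry2* and *Hlf* rose and *Bhlhe41* fell. *Cry2*, a repressor of the clock, was at 33.6 to 43.7 CPM for WT and 53.8 to 67.1 CPM in KO livers. Of 14 genes of the growth hormone and IGF axis, *Igfbp4*, *Igfals* and *Cish* rose. Of the 10 hepatocyte identity genes *Apoh* alone passed, and 6 were higher without KO liver 5. Over all genes tested 15.5% passed, and 41.4% without KO liver 5. Several of these calls depended on which livers were included. Across the 10 fits that left out 1 liver, *Gstm1*, *Fth1*, *Bhlhe41* and *Apoh* lost the call in 8. *Ccng1* lost it in 6, *Dnajb9* and *Igfbp4* in 5 and *Bmp6* in 4, while *Hmox1* and *Cry2* lost it in 0.

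The same comparison on WD called 12 of 15848 genes (0.0757%). The difference between the diets was tested in 1 fit of all 20 livers, in which 99 of 17804 genes passed (0.556%). That count was 2138 without KO liver 5, 35 without KO liver 3 and 8 with the replicate number as a block. Among the named genes it passed for *Meg3*, *Xdh*, *Prodh*, *Cyp2d12*, *Usp18* and *Rpl39*. The log2 fold change of *Meg3* was 2.59 on CDA-HFD and 0.30 on WD (interaction adjusted p = 0.00704). For *Xdh* it was 0.75 and -0.15 (interaction adjusted p = 0.0017), and for *Prodh* it was 1.26 and 0.02 (interaction adjusted p = 0.0107). These 3 genes were higher on CDA-HFD and near 0 on WD. *Mcm2* had -0.93 on CDA-HFD and -0.95 on WD, and *Mmp12* had -2.75 and -1.49, without a called interaction for either (adjusted p = 0.984 and 0.584). On WD neither gene passed by itself.

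**Figure D5:**
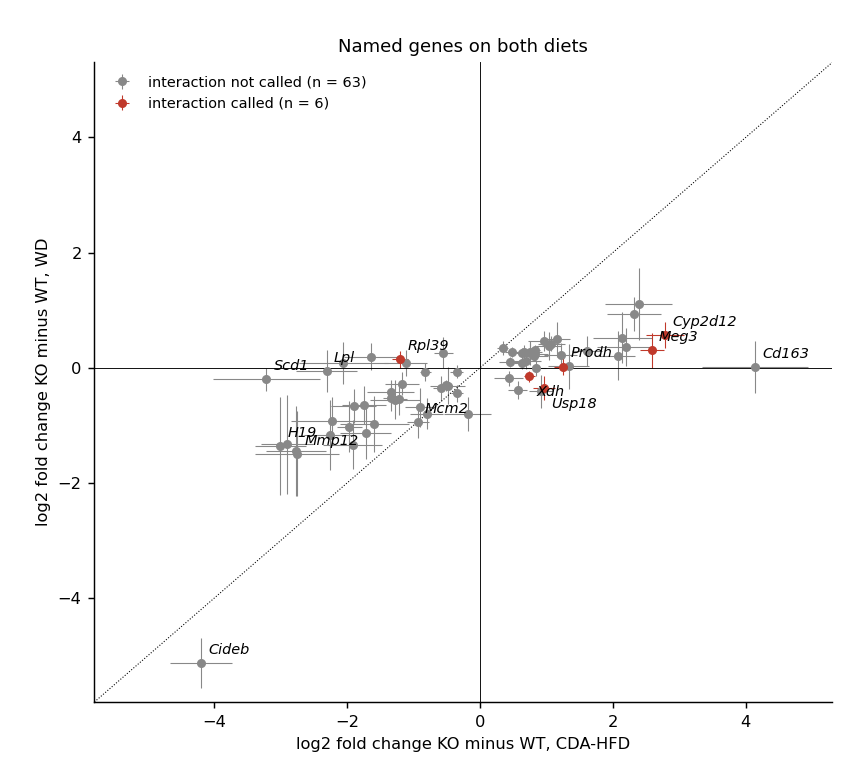
Log2 fold change (KO minus WT) of the named genes tested on both diets, CDA-HFD on the horizontal and WD on the vertical axis, with standard errors as bars. The dotted line marks equal values; the 6 genes whose interaction was called are red, such as Meg3 at 2.59 and 0.30, and Cideb lies near the line at -4.19 and -5.12.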

How the data were processed

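RNA-seq of whole livers from 5 WT and 5 KO mice on CDA-HFD was analysed, with the 10 livers on WD for the interaction. The authors counted reads per gene, and the deposited table holds raw counts without normalization. The labels name mm10. The aligner and the counting program are not given in the sources used here. Rows that name no gene (reads outside genes, ambiguous, not aligned or not unique) were dropped, and reads on genes were 44.2% to 49.4% of all reads tallied. The labels name a directional kit and the study's methods another, so it is not known whether strand was used.

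The main test was edgeR 4.0.16's quasi-likelihood F test (R 4.3.3; filterByExpr, TMM, Benjamini-Hochberg threshold 0.05). CPM are TMM-normalized. DESeq2 1.42.0 and limma 3.58.1 were alternatives, as were other scalings and filters, a replicate block and leaving out each liver. The edgeR fit was also run on simulated counts in which no liver stood apart. That run does not show how the fit behaves with a liver such as KO liver 5. Standard errors were derived from the F statistic. The labels number 5 livers per group without saying more, so p-values measure the spread between these samples. Among 20 pairs of libraries within a group none was a copy: the mean squared difference of their counts was 7.43 to 124 in units of the Poisson variance. Counting depth limits genes with few reads. The labels' numbers were not treated as pairs.

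The comparison and the 41 hand-compiled lists (679 symbols) were chosen with earlier results of these data known. Named genes were the targeted gene and its family; the 8 largest rises and falls and the 8 smallest p-values with a mean of at least 2 log2 CPM, no overlap and no predicted genes; the called member of each list with the smallest p in each direction, or its most abundant member where none was called; and 6 genes each for which KO liver 5 lay with the other KO livers or in the WT range, of which 1 is not reported here. For *Meg3*, *Rian*, *Prodh*, *Xdh*, *Msr1* and *Hmox1*, the place of KO liver 5 with its group was thus given by the choice. Further list members, the promoter letters (5 motifs searched) and the cases named in the text were picked with their values in view. The HNF1, DR1 and PU.1 motifs were searched as well, but fewer than 80% of the called genes had a window, so no share is given. Coordinates and promoter sequences are from RefSeq (GRCm38.p6), which held a window for 12671 of the 17204 genes tested. No protein sequence was used here.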

Additional observations from a re-analysis of the deposited data

Results flagged for a closer look

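For 76 named genes, the lowest and highest liver of each group of 5 were compared with the rest by Dixon's ratio, the distance to the next liver divided by the spread of the group. The ratio passed 0.71 in 24 of 152 gene and group pairs, and 18 of the 24 were KO liver 5. A 5% rate would give 7.6, but that rate assumes independent, normally distributed values. The ratios were taken on CPM of chosen genes, so 7.6 is not a measure of chance here. That liver was higher than the other KO livers in *Il7r* (0.960), *Itgam* (0.927), *Lgals3* (0.924), *Soat1* (0.898), *Itgax* (0.896), *Mmp12* (0.888), *Vsig8* (0.866), *G6pdx* (0.864), *Atf3* (0.858), *Scd1* (0.856), *Lpl* (0.842), *Ccr1* (0.817), *Cd74* (0.816), *Pf4* (0.772), *Col8a1* (0.738), *Bhlhe41* (0.735) and *Cyp2d12* (0.713), and lower in *Acsf2* (0.927). Since some of the named genes were chosen because KO liver 5 lay in the WT range, these are not independent. *Il7r*, the interleukin-7 receptor, was at 23.0 CPM in KO liver 5 while KO livers 1 to 4 had 1.94 to 2.78 CPM. *Cd74* was the highest of the 10 livers in KO liver 5.

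In WT livers, liver 5 was higher than the others in *Acta2* (0.849; 23.8 against 9.31 to 11.5 CPM), *Lcn2* (0.824; 680 against 193 to 278 CPM), *Col8a1* (0.751) and *Muc1* (0.748), and liver 1 in *S100a9* (0.903; 30.1 against 9.23 to 11.3 CPM). KO liver 4 was higher in *Gbp11* (0.800; 185 against 24.7 to 56.8 CPM).

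The KO effect differed between the diets, by edgeR's interaction term, in 6 named genes. The log2 fold change on CDA-HFD minus that on WD was 2.29 for *Meg3*, 2.22 for *Cyp2d12*, 1.33 for *Usp18*, 1.24 for *Prodh*, 0.90 for *Xdh* and -1.35 for *Rpl39*.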

How the results depend on the processing

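The 2664 calls (1409 higher, 1255 lower) became 1709 with library size only (517 higher), 4037 with DESeq2 (2183 higher), 7727 with limma voom and a weight for each library (3694 higher, 4033 lower), where KO liver 5 had the weight 0.224, and 4170 with all 20 livers in 1 fit (2388 higher). Leaving out 1 liver gave 709 (without KO liver 1) to 7201 (without KO liver 5) calls, with 358 to 3406 higher and 347 to 3795 lower. Without WT liver 1, 3 or 5 there were 1352, 789 and 913 calls, and without KO liver 2, 3 or 4 there were 986, 736 and 1581. RLE size factors, no filter and at least 10 counts in every library kept the count within 1.5 times. The cause of these differences was not tested. The interaction count of 99 became 405 with DESeq2, 52 with no filter, 8 with the replicate block and 35 (without KO liver 3) to 2138 (without KO liver 5) when 1 liver was left out. Without WT liver 3 or 5 it was 36 and 51, and without KO liver 1 or 2 it was 38 and 63.

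Whether the numbers in the labels pair livers is not known, and correlations over 5 numbers cannot settle it. The same-number correlations of the residuals ran from -0.390 to 0.361 and for 1 of the 5 numbers the correlation was best with its own number. With the replicate block 2459 genes passed, 1998 of them shared with the main test. Of the named genes, 5 lost and 2 gained the call with it.

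*Cideb* was called under every alternative that kept it in the test, and at least 10 counts in every library removed it. Among the other 75 named genes a direction changed only for *Cidec*, which was not called: to 0.0016 without WT liver 5 and 0.0049 without KO liver 4, from -0.48 without KO liver 5 at the other end. The labels give no batches, and depth limits the genes under about 1 CPM.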
